A study of Mus musculus with 23 samples.

Results

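Cholesterol synthesis and its control by the transcription factor SREBP2 were followed through 8 genes of the 35976 in the count table. Hmgcs1, Sqle, Lss, Cyp51 and Dhcr7 encode enzymes of the pathway, Scd2 encodes a fatty acid desaturase, Insig1 encodes the retention protein of the SREBP system, and Srebf2 encodes SREBP2 itself. They were chosen by name for their role, without a measured value in the rule, but with earlier results of these data known. All 8 passed the filter on low counts that left 16121 genes for testing. The RNA was that of microglia taken from mouse striatum. The mice were C57BL/6J males, 9 weeks old in the protocol, and all had an intravenous catheter and could press a lever for infusions in 15 daily sessions of 2 hr. The Abstinence group (7 libraries) took methamphetamine at 0.05 mg/kg per infusion and then spent 21 days in the home cage without it. The Maintenance group (8 libraries) took the same dose and was collected right after the last session. The Saline group (8 libraries) took saline and was also collected right after the last session. No saline group that spent the 21 days at home was analysed here, so drug history, age and home cage time cannot be told apart between Abstinence and Saline. Between Abstinence and Maintenance, time since the last drug session, age and home cage time cannot be told apart either.

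Cells make cholesterol from acetyl-CoA, first as mevalonate, then as squalene, and then as a series of sterols that ends with cholesterol. When sterols in the endoplasmic reticulum are scarce, SCAP carries SREBP2 to the Golgi, where proteases free its active part, and this part switches on the genes of the pathway. When sterols are plentiful, INSIG proteins hold SCAP and SREBP2 back. In the adult brain, which takes up little cholesterol from blood, oligodendrocytes use much cholesterol for myelin, astrocytes supply other cells, and microglia meet cholesterol when they clear myelin.

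Promoter sequences from RefSeq (GRCm38.p6) were on hand for 6 of the 8 genes (Hmgcs1, Lss, Cyp51, Dhcr7, Insig1 and Srebf2). Those of Hmgcs1, Cyp51 and Srebf2 are shown because these genes shared their highest library, described further on. Each is the 250 bases before the annotated start, 5′ to 3′ on the strand of the gene, at chr13:119690101-119690350 (plus strand), chr5:4104698-4104947 (minus strand) and chr15:82147019-82147268 (plus strand). Capitals mark matches on either strand to TCACNCCA (a form of the sterol regulatory element that SREBPs bind), to the CCAAT box or to the E-box CACGTG.
Hmgcs1: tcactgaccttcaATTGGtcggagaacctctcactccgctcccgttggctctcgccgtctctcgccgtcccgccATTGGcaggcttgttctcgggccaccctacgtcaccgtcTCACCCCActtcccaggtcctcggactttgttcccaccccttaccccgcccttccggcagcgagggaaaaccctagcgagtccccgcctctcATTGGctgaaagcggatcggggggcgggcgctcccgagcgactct
Cyp51: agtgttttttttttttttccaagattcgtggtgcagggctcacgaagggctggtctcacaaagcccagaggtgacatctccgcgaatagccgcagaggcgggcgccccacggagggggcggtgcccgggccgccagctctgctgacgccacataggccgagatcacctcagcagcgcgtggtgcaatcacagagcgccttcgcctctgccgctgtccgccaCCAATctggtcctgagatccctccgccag
Srebf2: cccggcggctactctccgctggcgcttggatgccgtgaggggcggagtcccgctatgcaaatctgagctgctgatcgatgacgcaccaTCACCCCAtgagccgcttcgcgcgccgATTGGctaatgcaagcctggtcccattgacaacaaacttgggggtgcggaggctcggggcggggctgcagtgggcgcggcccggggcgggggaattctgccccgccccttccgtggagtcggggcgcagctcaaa
The TCACNCCA match lay at bases -137 to -130 from the start of Hmgcs1 and at -162 to -155 from that of Srebf2, and 3.674% of 32851 mouse promoter windows of this length hold such a match. A CCAAT box occurred 3 times in the Hmgcs1 window and once in those of Cyp51 and Srebf2, as in 33.85% of all windows. Of the 6 genes, Hmgcs1 and Srebf2 held the TCACNCCA match, and Cyp51, Lss, Dhcr7 and Insig1 did not. Other forms of the sterol regulatory element were not searched for, so a window without this match may still hold one. The table gives 3 windows for Dhcr7 and 1 for each of the other 5 genes. CACGTG, found in 6.021% of all windows, occurred in 2 of the 6 genes, at -101 to -96 in Insig1 and at -164 to -159 in the second Dhcr7 window. A CCAAT box occurred in all 6 genes, among them Lss, Insig1 and the third Dhcr7 window, and the first Dhcr7 window held none of the 3 motifs. The 3 motifs were chosen after the sequences had been read, none of their matches overlap in the windows shown, and a match describes letters, not binding.

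Library totals ran from 55.0 to 94.8 M counts (median 75.4 M, with M for 1e+06), and gene levels are given as counts per 1e+06 counts (CPM) scaled by TMM factors, the standard correction for composition in edgeR. The labels give microglia as the cell type but neuronal as the tissue. The microglial genes Tmem119 and P2ry12 lay at 3195 to 5084 CPM and 7468 to 11841 CPM, and all 12 microglial markers had counts in all 23 libraries. Maintenance 6 and Maintenance 7 had the fewest detected genes (12459 and 12740). Maintenance 8 stood apart in markers of choroid plexus and ependymal cells, which summed to 75583 CPM there, against at most 328.8 CPM in the other Maintenance libraries. Oligodendrocyte markers, all 16 with counts in all 23 libraries, had mean log2 CPM of 6.72 ± 0.44 in Abstinence and 6.70 ± 0.66 in Maintenance, against 5.87 ± 0.85 in Saline (SD). Both differences from Saline had p-values under 0.05 in two-sided exact permutation tests (0.0339 and 0.0491), and neither passed over the 36 marker tests (adjusted p = 0.136 and 0.161). Against Saline 14 of the 16 markers had a log2 fold change above 0 in each comparison, and in Abstinence against Maintenance 6 of 16 did. The marker Mbp ran the other way, at 502 ± 227 CPM in Abstinence, 655 ± 483 CPM in Maintenance and 795 ± 578 CPM in Saline (SD). Neutrophil markers had mean log2 CPM of 0.80 ± 0.77 in Abstinence and 1.17 ± 1.25 in Maintenance, against 3.46 ± 1.51 in Saline, with adjusted p = 0.0559 and 0.0951 in the exact tests. The labels do not say that each library came from its own animal, so p-values measure the spread between these samples, and bulk RNA cannot tell fewer cells of a type from less RNA per cell.

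None of the 8 genes changed past the threshold (edgeR quasi-likelihood test, Benjamini-Hochberg adjusted p under 0.05 over all 16121 genes) in any of the 3 comparisons. In Maintenance against Saline, 0 of 8 passed, with 0.707% of all genes called (114), and 0 of 8 had an unadjusted p under 0.05, as had 11.8% of all genes. In Abstinence against Saline, 0 of 8 passed, with 0.0186% of all genes called (3), and 1 of 8, Scd2, had an unadjusted p under 0.05, as had 4.39% of all genes. In Abstinence against Maintenance, 0 of 8 passed, with 0.949% of all genes called (153), and 2 of 8, Dhcr7 and Scd2, had an unadjusted p under 0.05, as had 11% of all genes. Median log2 fold changes of the 8 were 0.18, 0.33 and 0.12 in these comparisons, with 5, 7 and 6 of 8 above 0. The medians over all genes were 0.01, 0.01 and 0.01, with 50.6%, 51.3% and 50.8% of genes above 0. Each pair of comparisons shares a group of libraries, so the 3 sets of values are not independent. With limma voom and sample quality weights in place of edgeR, 1 of the 8, Scd2, passed in Abstinence against Saline (adjusted p = 0.0266), where that fit called 208 genes.

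**Figure D1:**
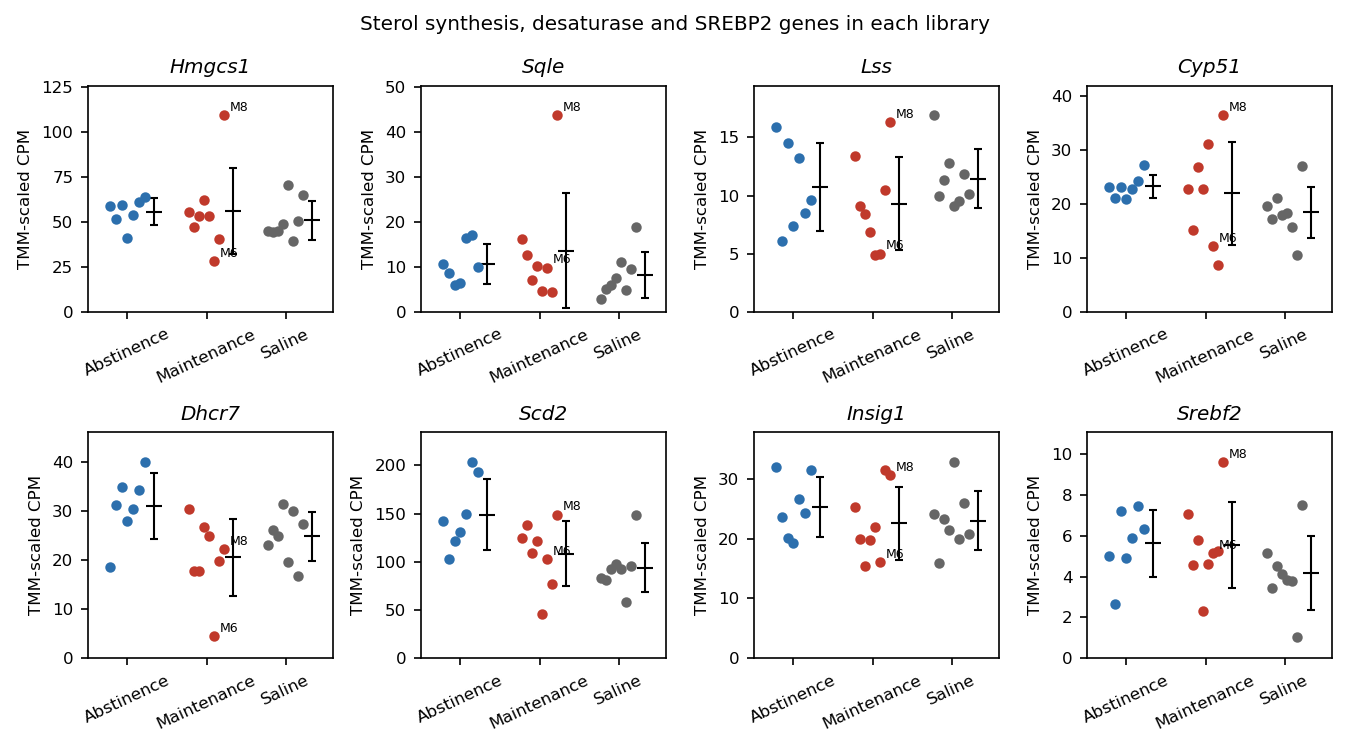
TMM-scaled CPM of the 8 genes in each library of the Abstinence (n = 7), Maintenance (n = 8) and Saline (n = 8) groups, with the mean and SD beside each set of points. M6 and M8 mark Maintenance 6 and Maintenance 8, which holds the highest point of Hmgcs1, Sqle, Cyp51 and Srebf2, and the 3 groups overlap for every gene.

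Scd2 (chr19:44293676-44306864), which places the first double bond in saturated fatty acids, is a known SREBP target and the main stearoyl-CoA desaturase gene of mouse brain. It ran from 103.0 to 203.5 CPM in Abstinence (median 141.8), from 45.9 to 148.9 CPM in Maintenance (median 115.1) and from 58.7 to 148.1 CPM in Saline (median 92.7). All 7 Abstinence libraries lay above the Saline median, and 3 of them, Abstinence 5, 6 and 7 (149.4, 203.5 and 193.1 CPM), above every Maintenance and Saline library. The groups still overlapped, since Saline 8, at 148.1 CPM, lay above 4 of the 7 Abstinence libraries. Means were 149.0 ± 36.9 CPM in Abstinence and 93.7 ± 25.3 CPM in Saline (SD), a log2 fold change of 0.67 ± 0.20 (SE, 95% interval 0.25 to 1.09). Its unadjusted p of 0.0030 ranked 86 among 16121 genes and did not pass (edgeR adjusted p = 0.546). Against Maintenance, with 108.5 ± 33.5 CPM, the log2 fold change of Abstinence was 0.46 ± 0.20 (interval 0.04 to 0.88, edgeR adjusted p = 0.380). Maintenance against Saline gave 0.21 ± 0.20 (interval -0.19 to 0.62, edgeR adjusted p = 0.774).

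Part of the Scd2 transcript is shared with its paralog Scd1, so reads may have been split between them. The coding sequences were 89.6% identical, with a longest identical run of 147 bases, and 145 of 5406 words of 50 bases in Scd2 also occurred in Scd1. Per kilobase of exon Scd1 was less abundant than Scd2, at 1.34, 2.53 and 0.94 CPM per kb in Abstinence, Maintenance and Saline, against 27.3, 19.9 and 17.2. Its level was 6.5 ± 3.1 CPM in Abstinence, 12.2 ± 9.7 CPM in Maintenance and 4.5 ± 2.8 CPM in Saline (SD). The log2 fold change of Scd1 in Maintenance against Saline was 1.42 ± 0.43 (edgeR adjusted p = 0.121), with all 8 Maintenance libraries above the Saline median and Maintenance 8 highest at 33.8 CPM. Without Maintenance 8 it was 0.998, and without Saline 8 it was 1.72 and passed (edgeR adjusted p = 0.0440).

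Dhcr7 (chr7:143823167-143848410) encodes the reductase that turns 7-dehydrocholesterol, also the precursor of vitamin D, into cholesterol. It ran from 18.6 to 40.0 CPM in Abstinence (median 31.2), from 4.51 to 30.4 CPM in Maintenance (median 21.0) and from 16.7 to 31.4 CPM in Saline (median 25.4). Of the 7 Abstinence libraries, 6 lay above the Maintenance median, while 3 of 7 lay inside the Maintenance range, and Maintenance 6 was the lowest of all 23. Abstinence against Maintenance gave means of 31.0 ± 6.7 and 20.5 ± 7.8 CPM (SD) and a log2 fold change of 0.60 ± 0.24 (interval 0.10 to 1.09, edgeR adjusted p = 0.303). Without Maintenance 6 this log2 fold change was 0.44. Against the Saline mean of 24.8 ± 5.0 CPM, the values were 0.32 ± 0.24 for Abstinence and -0.28 ± 0.23 for Maintenance, on opposite sides of 0. Neither passed (edgeR adjusted p = 0.999 and 0.733).

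Hmgcs1 (chr13:119690351-119708260) encodes the cytosolic HMG-CoA synthase, an early enzyme of the mevalonate steps and a standard readout of SREBP2 activity. It ran from 41.3 to 63.9 CPM in Abstinence (median 58.7), from 28.3 to 109.3 CPM in Maintenance (median 53.4) and from 39.4 to 70.4 CPM in Saline (median 46.8). Both the lowest and the highest of the 23 libraries were Maintenance libraries, Maintenance 6 and Maintenance 8. The coefficient of variation was 42.4% in Maintenance, 13.6% in Abstinence and 21.3% in Saline, and the difference in spread was not tested. Without Maintenance 8 it was 23.1% in Maintenance, and without Abstinence 4 it was 7.8% in Abstinence. The log2 fold change was 0.13 ± 0.19 in Abstinence against Saline, 0.14 ± 0.18 in Maintenance against Saline and -0.01 ± 0.19 in Abstinence against Maintenance, with 95% intervals from -0.26 to 0.51, from -0.23 to 0.51 and from -0.40 to 0.37. Without Maintenance 8, the value for Maintenance against Saline was -0.07.

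Sqle (chr15:59315092-59331193) encodes squalene epoxidase, the first step that uses oxygen and a point of flux control in the pathway. It ran from 6.0 to 17.02 CPM in Abstinence (median 9.98), from 4.3 to 43.7 CPM in Maintenance (median 9.99) and from 2.8 to 19.0 CPM in Saline (median 6.69). Maintenance 8 alone gave the high end: the next Maintenance library stood at 16.1 CPM, within the range of Saline. The log2 fold change in Maintenance against Saline was 0.72 ± 0.42 (interval -0.13 to 1.58, edgeR adjusted p = 0.543), the largest of the 8 in that comparison, and 0.17 without Maintenance 8. Abstinence against Saline gave 0.38 ± 0.43 (interval -0.50 to 1.27). Abstinence against Maintenance gave -0.34 ± 0.43, and 0.20 without Maintenance 8.

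Cyp51 (chr5:4080674-4104697) encodes lanosterol 14-alpha-demethylase, an early step on the sterol ring. It ran from 21.0 to 27.3 CPM in Abstinence (median 23.1), from 8.7 to 36.4 CPM in Maintenance (median 22.7) and from 10.5 to 27.0 CPM in Saline (median 18.2). All 7 Abstinence libraries lay above the Saline median, and their coefficient of variation of 9.1% was the smallest of the 24 (8 genes in 3 groups), against 43.4% in Maintenance and 25.4% in Saline. Leaving out 1 library gave 5.6% to 10.0% in Abstinence, 35.7% to 47.3% in Maintenance and 18.9% to 27.5% in Saline. The difference in spread was not tested. Means of 23.3 ± 2.1 CPM in Abstinence and 18.4 ± 4.7 CPM in Saline (SD) gave a log2 fold change of 0.33 ± 0.23 (interval -0.13 to 0.80, edgeR adjusted p = 0.999). Maintenance against Saline gave 0.25 ± 0.22, and Abstinence against Maintenance 0.08 ± 0.23.

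Lss (chr10:76531565-76557139) encodes lanosterol synthase, which closes the sterol rings. It ran from 6.0 to 15.9 CPM in Abstinence (median 9.65), from 4.9 to 16.3 CPM in Maintenance (median 8.73) and from 9.1 to 16.9 CPM in Saline (median 10.7). Apart from Saline 1, the Saline libraries lay inside the ranges of both other groups, and the gene had a log2 fold change below 0 against Saline both in Abstinence (-0.09 ± 0.26) and in Maintenance (-0.30 ± 0.25). The 95% intervals were -0.62 to 0.43 and -0.81 to 0.21. Without Maintenance 8, Maintenance against Saline gave -0.46.

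Among the regulators, Insig1 (chr5:28071412-28078662), itself an SREBP target, ran from 19.3 to 32.1 CPM in Abstinence (median 24.3), from 15.5 to 31.5 CPM in Maintenance (median 21.0) and from 15.9 to 32.8 CPM in Saline (median 22.3). The 3 ranges nearly coincide. Its log2 fold change was 0.14 ± 0.17 in Abstinence against Saline, -0.03 ± 0.16 in Maintenance against Saline and 0.17 ± 0.17 in Abstinence against Maintenance, with no 95% bound beyond 0.512 in size. Srebf2 (chr15:82147269-82205379) ran from 2.66 to 7.45 CPM in Abstinence (median 5.89), from 2.34 to 9.63 CPM in Maintenance (median 5.22) and from 1.04 to 7.50 CPM in Saline (median 4.0). Of the Maintenance libraries, 7 of 8 lay above the Saline median, as did 6 of the 7 Abstinence libraries, and Saline 8 lay above all 7 of Abstinence. Log2 fold changes were 0.43 ± 0.33 in Abstinence against Saline and 0.41 ± 0.32 in Maintenance against Saline, with intervals from -0.25 to 1.12 and from -0.25 to 1.08 (edgeR adjusted p = 0.999 and 0.707). This message says nothing of how much SREBP2 protein was cut free.

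**Figure D2:**
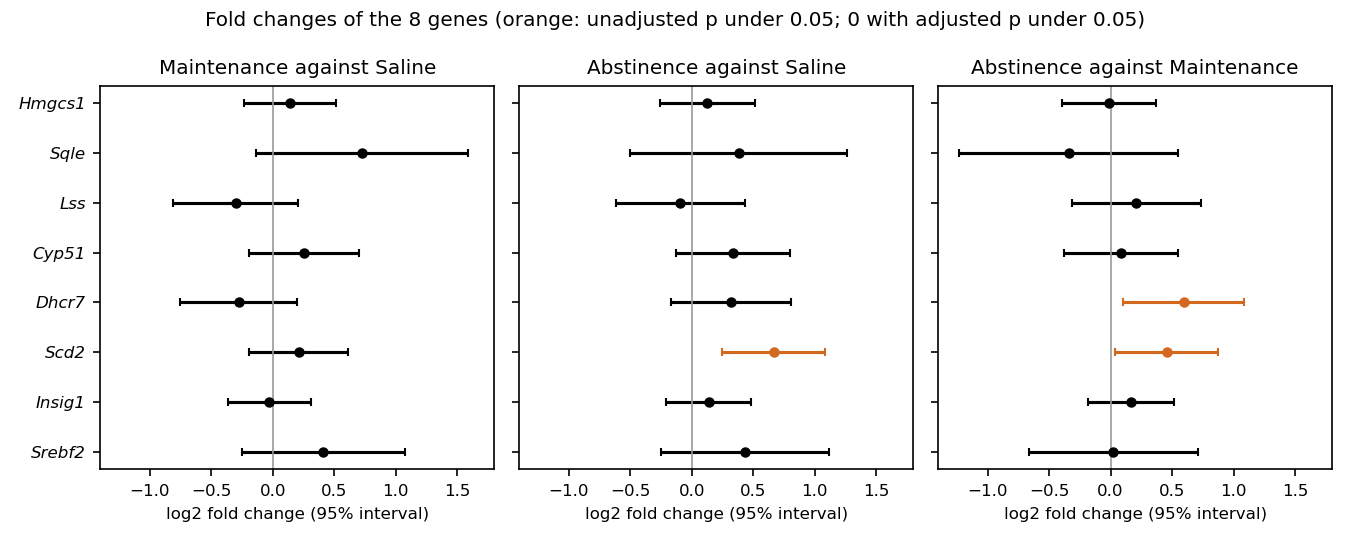
Log2 fold changes of the 8 genes in the 3 comparisons from the edgeR fit, with 95% intervals. The intervals that leave out 0 are those of Scd2 in Abstinence against Saline (0.67) and of Dhcr7 (0.60) and Scd2 (0.46) in Abstinence against Maintenance, all with an adjusted p over 0.05.

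Per kilobase of exon, the mean level of the 8 genes kept 1 order in all 3 groups: Scd2, Hmgcs1, Insig1, Dhcr7, Cyp51, Sqle, Lss and Srebf2. In Abstinence, Scd2 stood at 27.3 ± 6.8 and Srebf2 at 1.11 ± 0.32 CPM per kb (SD). In Maintenance these levels were 19.9 ± 6.1 and 1.10 ± 0.42 CPM per kb, and in Saline 17.2 ± 4.6 and 0.82 ± 0.36 CPM per kb. Not all neighbours in this order were distinct. In Saline, Scd2 and Hmgcs1 differed by less than their SD (17.2 ± 4.6 and 14.6 ± 3.1 CPM per kb), as did Insig1 and Dhcr7 (8.54 ± 1.84 and 7.50 ± 1.497 CPM per kb). Sqle (2.98 ± 1.85 CPM per kb) differed from Cyp51 (4.69 ± 1.19) and from Lss (2.45 ± 0.54) by less than its own SD. The other 3 of the 7 neighbouring pairs in Saline, Hmgcs1 and Insig1, Dhcr7 and Cyp51, and Lss and Srebf2, were further apart than the larger SD of the pair. In Abstinence 5 of 7 pairs were further apart than that, all but Insig1 with Dhcr7 and Sqle with Lss. In Maintenance 2 of 7 were, Hmgcs1 with Insig1 and Lss with Srebf2. Insig2, the second INSIG gene and not a classical SREBP target, was more abundant than Insig1, at 26.8 ± 3.7, 28.1 ± 6.8 and 27.1 ± 1.8 CPM per kb in Abstinence, Maintenance and Saline.

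The 5 enzyme genes lay between the extremes of the pathway. Among 19 enzyme genes between acetyl-CoA and cholesterol, the sterol isomerase gene Ebp was highest, at 45.3, 44.0 and 45.0 CPM per kb in Abstinence, Maintenance and Saline. Hsd17b7, which encodes a reductase of the sterol steps, was lowest, at 1.31, 1.04 and 1.22 CPM per kb, with a count of 0 in 2 of the 8 Maintenance libraries. The next lowest was Idi1, the isomerase of the isoprene units, at 1.51, 1.79 and 1.52 CPM per kb. Dhcr7 stood at 9.37, 6.20 and 7.50 CPM per kb, beside medians over the 19 genes of 7.72, 6.20 and 7.19 CPM per kb, and in Maintenance it was itself the median gene.

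**Figure D3:**
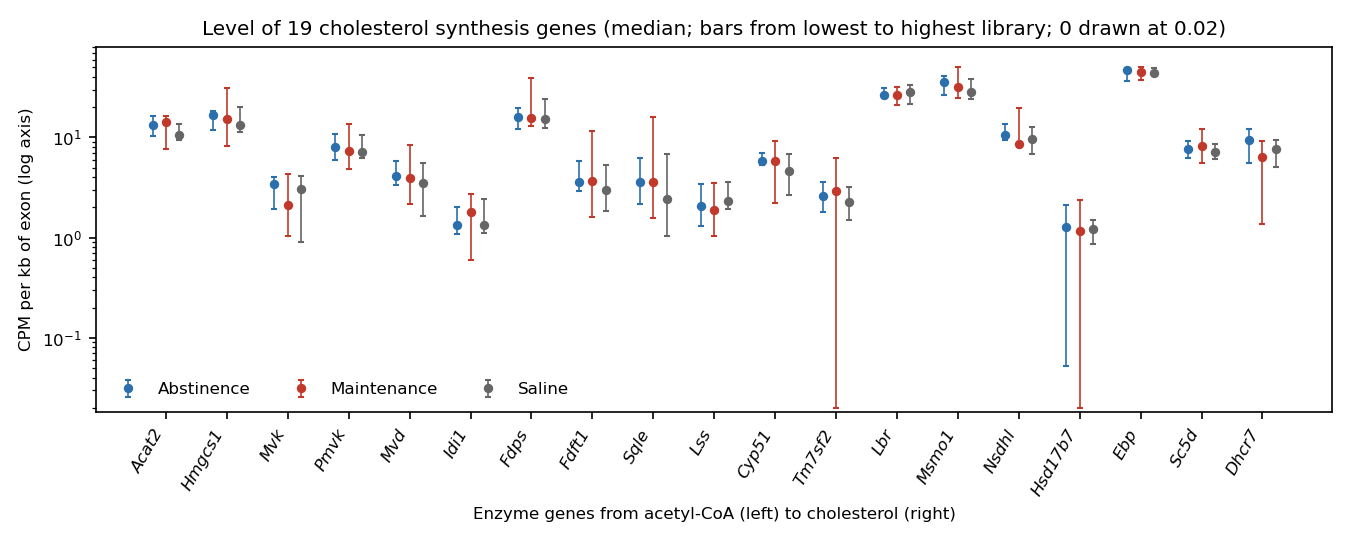
CPM per kilobase of exon (log axis) of 19 enzyme genes in pathway order, with the median and the lowest to highest library of Abstinence, Maintenance and Saline. Ebp lies highest, near 45 CPM per kb, and Hsd17b7 lowest, and the bars of Tm7sf2 and Hsd17b7 reach 0 in Maintenance.

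Across the 23 libraries the 8 genes moved together only in part. The Pearson r of log2 CPM was above 0 in 27 of 28 pairs, with a median of 0.31, and above 0.5 in 5 pairs. The closest pairs were Sqle with Scd2 (0.69), Hmgcs1 with Cyp51 (0.68) and Hmgcs1 with Sqle (0.65), and the lowest was Sqle with Dhcr7 (-0.01). These pairs share their libraries and scaling, so the values are a description. Maintenance 8 was the highest of 23 libraries for 4 of the 8 genes (Cyp51, Hmgcs1, Sqle and Srebf2) and Maintenance 6 the lowest for 2 (Dhcr7 and Hmgcs1). The mean of the 8 standardised levels was 1.53 in Maintenance 8 and -1.38 in Maintenance 6, the ends of the whole series, while the Abstinence libraries lay between -0.25 and 0.83 and the Saline libraries between -0.66 and 0.60. The part that the choroid and ependymal markers of Maintenance 8 have in its values was not tested. Of the 9046 other genes whose mean log2 CPM was 2 or more, those most like this mean over the 23 libraries were Cntn1 (r = 0.82), Tob1 (0.80), Tspyl4 (0.80), Sox9 (0.79), Gstm5 (0.79), Pla2g16 (0.78), Pfn2 (0.78) and Cacnb4 (0.78).

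Scd2 moved with the oligodendrocyte markers taken as a mean. Its log2 CPM had a Pearson r of 0.62 with their mean over 23 libraries (permutation adjusted p = 0.0140 over 8 genes) and a Spearman rho of 0.59 (permutation adjusted p = 0.0134). Without Saline 6 and Saline 8, the libraries farthest from the median on that mean, r was 0.51. Within groups r was 0.73 in Abstinence, 0.28 in Maintenance and 0.95 in Saline. The Maintenance value rested on single libraries: it was 0.82 without Maintenance 8, 0.18 without Maintenance 2 and -0.11 without Maintenance 5. For Sqle, rho was 0.61 (permutation adjusted p = 0.0134) and r 0.44 (permutation adjusted p = 0.136), which was 0.33 without the same 2 libraries. Within groups Sqle had an r of 0.78 in Abstinence, -0.23 in Maintenance and 0.82 in Saline. Without Maintenance 8 the r of Sqle was 0.69 within Maintenance and 0.73 over the other 22 libraries, while it was -0.36 and -0.48 within Maintenance without Maintenance 1 and Maintenance 5. Hmgcs1 had 0.78, -0.33 and 0.86 within these groups and 0.24 over all libraries (permutation adjusted p = 0.635). Without Maintenance 8 its r was 0.44 within Maintenance and 0.51 over the other 22 libraries, and without Maintenance 6 it was -0.61 within Maintenance. Without Abstinence 4 it was 0.47 within Abstinence, and without Saline 6 it was 0.14 over the other 22. Insig1 and Cyp51 had an r of 0.82 and 0.78 within Abstinence, -0.23 and -0.39 within Maintenance, and 0.26 and 0.41 within Saline. Over all libraries these were 0.16 and 0.13. Leaving out 1 library gave 0.71 to 0.91 for Insig1 and 0.71 to 0.85 for Cyp51 within Abstinence. It gave -0.38 to 0.18 for Insig1 within Maintenance and -0.13 to 0.84 for Cyp51 within Saline. Over all 23 libraries, Dhcr7 had an r of 0.03 and Lss of -0.14, and leaving out 1 library gave -0.03 to 0.11 and -0.21 to -0.07. The marker Mbp was highest in Maintenance 7, Saline 7 and Saline 5 (1750, 1678 and 1523 CPM), where Scd2 stood at 77.3, 95.4 and 92.7 CPM. Abstinence 6 and 7, highest for Scd2, had Mbp at 472 and 558 CPM. In Saline, both genes were low in Saline 6 (Mbp 125, Scd2 58.7 CPM) and higher in Saline 8 (1094 and 148.1 CPM). The relation of Scd2 to single markers was not tested.

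The summed level of the 16 markers ran from 5671 to 9361 CPM in Abstinence, from 4943 to 10582 CPM in Maintenance and from 4729 to 9807 CPM in Saline. A few abundant markers can carry such a sum: in Saline 6 it was 4729 CPM, at a mean log2 CPM of 4.52 and with Mbp at 125 CPM. With the mean log2 CPM of the 16 markers as a covariate, the log2 fold change of Scd2 was 0.41 in Abstinence against Saline, 0.43 in Abstinence against Maintenance and -0.02 in Maintenance against Saline. Oligodendrocyte precursor markers (7, of which 3 had counts in all libraries) summed to 34.8 to 75.1 CPM in Abstinence, 8.0 to 49.4 CPM in Maintenance and 12.4 to 62.6 CPM in Saline. Their mean log2 CPM was 1.36 ± 0.62 in Abstinence, -0.08 ± 1.46 in Maintenance and 0.05 ± 1.26 in Saline (SD). Abstinence was higher by 1.31 against Saline, with 7 of 7 markers above 0, and by 1.44 against Maintenance, with 6 of 7, in two-sided exact permutation tests (p = 0.0241 and 0.0326), and neither passed over the 36 marker tests (adjusted p = 0.124 and 0.136). Abstinence and Maintenance differed in the mean of the 16 oligodendrocyte markers by 0.02 (exact permutation p = 0.956). Striatal neuron markers (12, of which 3 had counts in all libraries) were also higher in Abstinence. The difference was 1.66 against Maintenance, with 10 of 12 above 0 (exact permutation p = 0.0205, adjusted p = 0.123). It was 0.58 against Saline, with 12 of 12 above 0 (exact permutation p = 0.176, adjusted p = 0.352). Astrocyte markers were higher by 0.15 and 0.39 (exact permutation p = 0.543 and 0.346). The part of any of these cell types in the Scd2 difference was not tested.

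**Figure D4:**
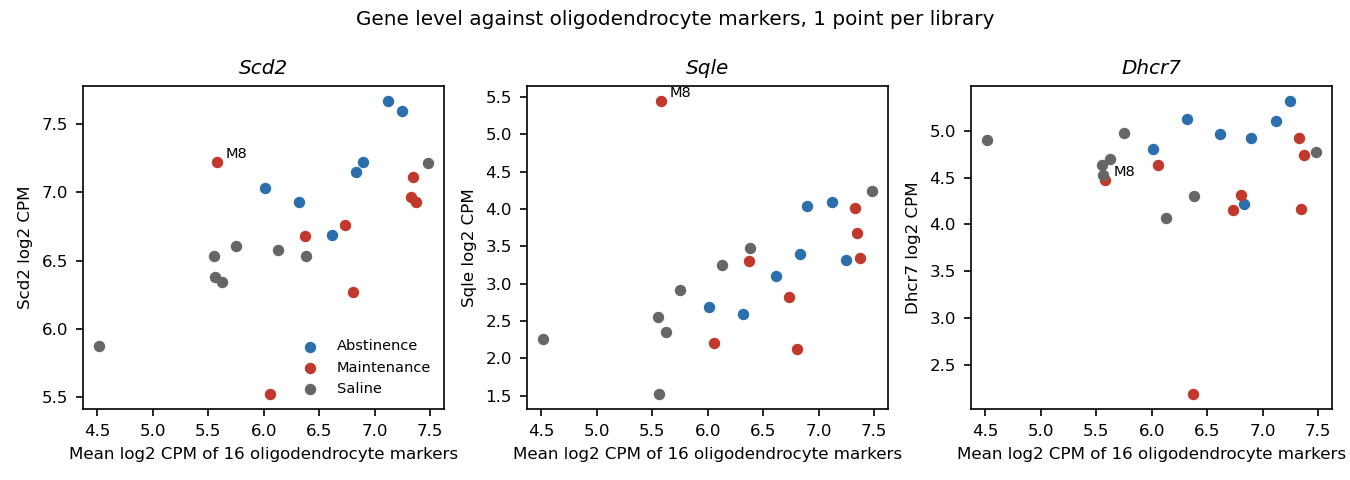
Log2 CPM of Scd2, Sqle and Dhcr7 in each library against the mean log2 CPM of 16 oligodendrocyte markers, coloured by group, with M8 for Maintenance 8. Over all 23 libraries, r with this mean was 0.62 for Scd2, 0.44 for Sqle and 0.03 for Dhcr7. Without Maintenance 8 it was 0.73 for Sqle.

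The wider pathway was read from 63 other genes in 7 lists, of which 62 were tested. In Maintenance against Saline 1 of 62 rose and 0 fell, in Abstinence against Saline 0 passed in either direction, and in Abstinence against Maintenance 0 rose and 1 fell. The shares called over all 16121 genes were 0.707%, 0.0186% and 0.949%. None of the 6 genes of the mevalonate steps, the 8 of the sterol steps, the 10 for SREBP control, the 8 tested for sterol uptake and transport, the 13 for fatty acid synthesis or the 8 for sterol storage and oxysterols passed in any comparison. Median log2 fold changes in Maintenance against Saline were 0.23 for the mevalonate steps and 0.11 for the sterol steps, beside 0.18 for the 8 genes. In Abstinence against Saline they were 0.08 and 0.13, beside 0.33. Srebf1, which encodes the related factor for fatty acid genes, had 12.7 ± 5.3 CPM in Abstinence, 8.6 ± 5.7 CPM in Maintenance and 9.5 ± 3.9 CPM in Saline (SD), with a count of 0 in Maintenance 7. It did not pass in any comparison.

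Apoe (chr7:19696244-19701310) encodes the main apolipoprotein of brain cholesterol transport and is a target of the sterol sensor LXR. It ran from 1102 to 1618 CPM in Abstinence (median 1303), from 1589 to 2848 CPM in Maintenance (median 1874) and from 1236 to 1913 CPM in Saline (median 1458). Abstinence and Maintenance overlapped by a narrow margin, and all 8 Maintenance libraries lay above the Saline median. It was the 1 gene of the lists that passed. It fell in Abstinence against Maintenance by 0.63 ± 0.12 on the log2 scale (edgeR adjusted p = 0.00759). It rose in Maintenance against Saline by 0.48 ± 0.11 (edgeR adjusted p = 0.0456), a call lost in 14 of the 23 fits that left out 1 library, with adjusted p up to 0.110. Without Maintenance 6, 7 and 8 it was 0.28 (edgeR adjusted p = 0.203). Abstinence against Saline gave -0.15 ± 0.12 (edgeR adjusted p = 0.999). The other 8 genes for LXR and efflux did not pass.

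**Figure D5:**
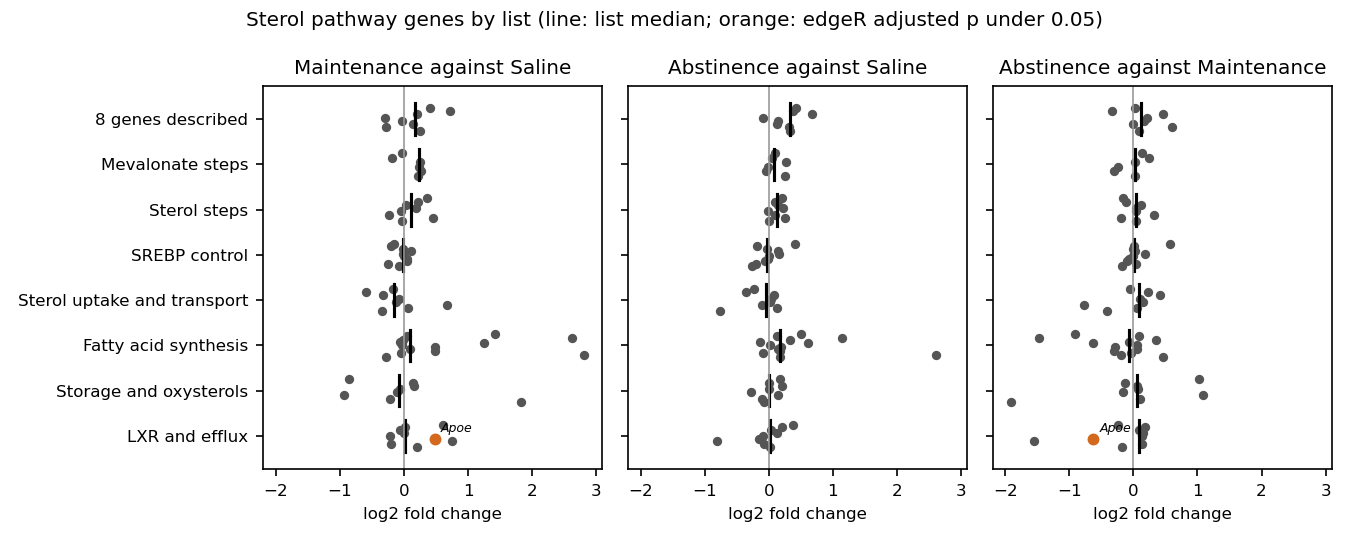
Log2 fold changes of the 8 genes and of the 62 other tested pathway genes by list in the 3 comparisons, with a line at each list's median. Genes with an edgeR adjusted p under 0.05 are orange and named: Apoe in Maintenance against Saline (0.48) and in Abstinence against Maintenance (-0.63).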

How the data were processed

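The authors deposited whole-number counts of reads per gene for 35976 genes in 23 libraries, per the file headers and values. Libraries were made with a low-input kit, per the labels' protocols. The submitters' processing notes name the build mm10 (GRCm38), the aligner STAR (2.7.10a), the trimmers cutadapt (1.18) and Trim Galore (0.6.7), and DESeq2 (1.38.3) beside StringTie (2.1.5). Roles, settings and strand are not given in the sources used here. A second deposited table, named as normalized, held the same counts in 17 of the libraries (0 of 611592 values differed). It was used only to choose 1 alternative set of libraries.

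A filter on low counts (filterByExpr of edgeR 4.0.16, at 10 counts and a total of 15) kept 16121 genes, and TMM factors scaled the libraries. A single robust quasi-likelihood model, with a term for group alone, was fitted to the 23 libraries. P-values were adjusted over all genes tested, with a threshold of 0.05, and SE is the log2 fold change over the square root of F. The common biological coefficient of variation was 0.831. The fit was also run on simulated data, but the outcome is not reported here. That run therefore does not show how small a change the fit could detect in these libraries. Log2 CPM used a prior count of 2. CPM per kb used the merged exon length of GENCODE M21 genes (GRCm38). Correlations used 100000 permutations and marker means exact permutation tests.

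Named genes are the 8 genes, pathway genes that passed in any comparison (at most 4 per list, by p), Srebf1, Scd1, the 8 genes most like the mean of the 8 by Pearson r, and the markers Tmem119, P2ry12 and Mbp. Other genes of the pathway that the rule and lists held are not reported here. Ebp, Hsd17b7, Idi1, Tm7sf2 and Insig2 were named after their levels were seen. The genes, lists and marker lists were chosen with earlier results of these data known. Genes that overlap Lss, Insig1, Scd2 and Srebf2 had a mean of at most 1 count. Alternatives were RLE factors, no filter, DESeq2 1.42.0, limma voom with quality weights (limma 3.58.1), a replicate block, only the compared groups, the oligodendrocyte marker mean as a covariate, the 17 libraries, leaving out Maintenance 6, 7 and 8, and leaving out each library. Leaving out each library from the marker correlations and the coefficients of variation was added after seeing the data.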

Additional observations from a re-analysis of the deposited data

Results flagged for a closer look

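In 39 sets of values, each 1 gene or marker list in 1 group, 8 had 1 library far from the rest by Dixon's test at 95%. The test flags about 1 set in 20 by chance where values are normally distributed. CPM was used without a log scale and its distribution was not checked, so the chance rate here is not known. All 8 flagged libraries lay above the rest of their group. Maintenance 8 was far above its group for Hmgcs1 (109.3 CPM, next 62.3), Sqle (43.7 CPM, next 16.1) and Scd1 (33.8 CPM, next 16.9). The same library held the summed choroid plexus and ependymal markers at 75580 CPM (next 328.8). Saline 8 stood out for Scd2 (148.1 CPM, next 97.5) and for the summed choroid plexus and ependymal markers (283.7 CPM, next 110.8). Saline 1 stood out for Lss (16.9 CPM, next 12.8), and Abstinence 5 for Scd1 (12.6 CPM, next 7.26).

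Among the named genes, Apoe differed between the methamphetamine groups at an edgeR adjusted p under 0.05, by the test of Abstinence against Maintenance itself, with a log2 fold change of -0.63.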

How the results depend on the processing

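Of the 8 genes, 0 passed in every alternative run, except Scd2 with limma voom (with sample quality weights throughout) in Abstinence against Saline (1 of 8). Genes called in Maintenance against Saline, Abstinence against Saline and Abstinence against Maintenance numbered 114, 3 and 153. They were 351, 36 and 471 with DESeq2, 413, 208 and 340 with limma voom, 57, 5 and 64 with only the compared groups, and 176, 56 and 238 in the 17 libraries. With the marker covariate they were 60, 1 and 167, and without Maintenance 6, 7 and 8 they were 85, 15 and 199. With the replicate block they were 69, 4 and 126. Replicate numbers did not pair the libraries: deviations of 22 same-numbered pairs correlated at -0.23 to 0.16, 4 over 0.1, and 3 of the 22 were best with their own number. Leaving out 1 library gave 42 to 197, 1 to 15 and 89 to 265 genes, highest without Saline 8, Saline 8 and Maintenance 8, and lowest without Saline 3, Abstinence 1 (1 of several) and Abstinence 3.

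Pathway list genes called were 1, 0 and 1 of 62, with 0.707%, 0.0186% and 0.949% of all genes called. In Maintenance against Saline they were 0 with no filter, only the compared groups, the covariate and without Maintenance 6, 7 and 8, 2 with DESeq2 and limma voom, and 0 to 2 leaving out 1 library. In Abstinence against Maintenance they were 2 in the 17 libraries and 1 in every other alternative, leave-one-out fits included. Scd1 passed in Maintenance against Saline with DESeq2, limma voom and without Saline 8.

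Of the uncalled log2 fold changes, the following changed sign, with values in the 23-library edgeR fit from -0.34 (Sqle, Abstinence against Maintenance) to 0.21 (Scd2, Maintenance against Saline). In Maintenance against Saline, Scd2 was -0.016 with the covariate. In Abstinence against Maintenance, Hmgcs1 was 0.0065 with limma voom, 0.17 with the replicate block, 0.026 in the 17 libraries and 0.032 without the 3 libraries. Sqle was 0.094, 0.068 and 0.074 in the last 3 of these settings, and Cyp51 -0.040 and -0.033 in the last 2. Leaving out 1 library gave, in Maintenance against Saline, Hmgcs1 -0.071 to 0.24, Insig1 -0.11 to 0.063 and Srebf1 -0.40 to 0.042. In Abstinence against Saline it gave Lss -0.21 to 0.010. In Abstinence against Maintenance it gave Hmgcs1 -0.12 to 0.19, Sqle -0.50 to 0.20, Cyp51 -0.046 to 0.21 and Srebf2 -0.10 to 0.17. The causes were not tested.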
